A study of Gallus gallus with 2 samples.

Results

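Cells carrying the lipid barcode SBC2 came from chicken (Gallus gallus) embryos of both sexes, and the 667 female and 626 male cells among them are compared here. They are 1293 of the 60000 cell barcodes in the deposited table and 1293 of the 1416 SBC2 cells that passed the filters. A cell was kept if it had at least 4000 gene molecules and at most 20% of them from the 13 mitochondrial genes. It was assigned to SBC2 if it had at least 10 SBC2 molecules and at least 3 times as many as of any other barcode. A kept cell was called female if HINTW, SPIN1L and UBAP2L2 together had 3 or more molecules and male if they had 0. The 123 cells with 1 or 2 molecules were left out of both groups. Splanchnic cells, of the mesoderm that lines the gut, were those with at least 2 molecules of FOXF1, GATA4 and GATA5 together per 10000 gene molecules, which gave 386 female and 153 male cells.

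The tissue was the posterior end of wild-type embryos after 72 h of incubation, at 35 somites. The study took control embryos and embryos given 20 uL of homocysteine at 19 mM or 0.5 mM. Dissociated cells were tagged with lipid-anchored DNA barcodes, 1 per tissue, pooled and captured on BD Rhapsody, which counts polyadenylated RNA molecules per cell. The labels do not say which treatment SBC2 marks or how many embryos it holds. Female and male SBC2 cells share their barcode, labelling and capture, but not their embryo. Sex and embryo therefore cannot be told apart, and if a barcode held embryos of more than 1 treatment, neither could treatment. All cells came from 1 pooled capture with 60000 distinct cell indices and without replicates, so nothing below is a test. Every interval is a 95% interval. For sums and ratios it covers the counting error of molecules, for shares that of cells, and for medians the spread over genes. No interval measures the spread between embryos.

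In birds the female is the heterogametic sex, with 1 Z and 1 W chromosome, and the male has a pair of Z chromosomes. Birds do not silence a whole Z chromosome in males, and many Z genes are known to have more RNA in male than in female tissue. The W chromosome keeps a small set of genes, most of them with a related copy on Z, and these pairs are called gametologs. Chicken cells are known to carry their sex individually, before and outside the gonad.

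The cells were chosen by the molecule counts of the 3 W-linked genes, so the levels of these genes are a description only. HINTW, a repeated W-linked relative of the HINT1 nucleotide hydrolase gene, lies at 2901766 to 2911002 on chromosome W in RefSeq's annotation of GRCg7b, the build the table used. It had 158 counts per 1000000 gene molecules (CPM) in female cells. UBAP2L2, the W copy of the ubiquitin-associated protein gene UBAP2, lies at 763526 to 878530 and had 47.4 CPM. SPIN1L, the W copy of the chromatin reader gene SPIN1, lies at 6500543 to 6669172 and had 28.5 CPM. All 3 were at 0 in male cells by the rule. Just outside the threshold, 75 cells had 1 molecule and 48 cells had 2. Just inside it, 65 cells had 3 and 64 had 4. The plot of rule molecules per cell shows a dip at 2 molecules between the cells at 0 and the broad range of the female cells.

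**Figure D1:**
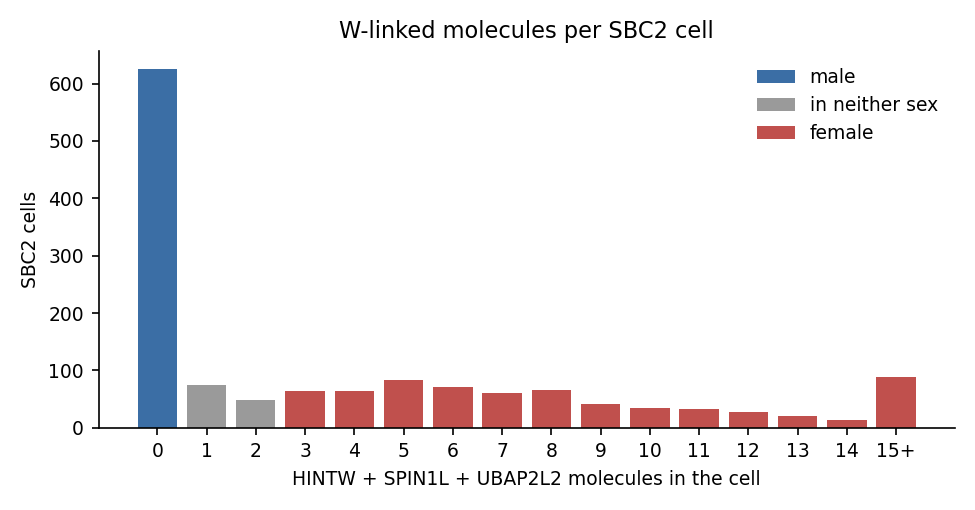
SBC2 cells by the number of HINTW, SPIN1L and UBAP2L2 molecules they hold (horizontal axis), with the number of cells on the vertical axis and bars coloured by the sex call. The 626 male cells form the bar at 0, the 48 cells with 2 molecules the lowest point next to it, and 88 female cells had 15 or more.

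The female share of the sexed cells was 51.6% (exact binomial interval 48.8 to 54.3%). Median depth was 30523 gene molecules in female and 29745 in male cells, and 24611 in the cells left out. The call moved with depth at both ends of the range. Among cells of 4000 to 8000 molecules, 6 were called female, 41 male and 13 were left out, while from 64000 molecules upward 84 were female, 43 male and 7 left out. The median mitochondrial share was 14.0% in female and 12.9% in male cells. SBC2 stood a median of 9.09 times above the next barcode in female cells and 6.55 times in male cells. The part of these differences in the results below was not tested.

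ATP5A1W, named in the table as the W form of the gene for the alpha subunit of mitochondrial ATP synthase, was not used to call sex. It had 199 CPM in female cells and 3.44 CPM in male cells, a ratio of female to male of 57.9. In splanchnic cells the levels were 222 and 4.41 CPM. At least 3 molecules of it were present in 577 of 667 female cells and in 4 of 626 male cells. With every cell thinned to 4000 molecules, 58.2% of female and 1.60% of male cells had an ATP5A1W molecule. Before thinning the shares were 99.0% and 7.51%. SBC3 is another barcode of the same capture, and 3981 of its 4373 filtered cells had none of the 3 rule genes. In those cells ATP5A1W was at 1.0 CPM and the thinned share was 0.352%, lower than in male SBC2 cells. Barcodes under 500 detected genes, taken here as free RNA, had 21.2 CPM.

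The remaining columns that RefSeq places on W by symbol did not all follow the sex call. SMAD7B, the W copy of the TGF-beta inhibitor SMAD7, lies at 4307664 to 4334160 on chromosome W. It had 11.6 CPM in female and 1.27 CPM in male cells, a ratio of 9.12 (exact interval 6.14 to 14.1). MBD2, a methyl-DNA binding protein gene that RefSeq places at 566367 to 601520 on W, had 21.3 CPM in female and 23.0 CPM in male cells. NEDD4L, a ubiquitin ligase gene placed at 7706890 to 8106055 on W, had 37.4 and 52.9 CPM. In the SBC3 cells without rule molecules MBD2 had 26.4 CPM and NEDD4L 51.1 CPM, where ATP5A1W had 0.999 CPM. Both symbols match RefSeq by name only, so the column in the table may not be the W locus. These 2 columns are therefore not read as W expression in male cells. ENS-1, a retrovirus-derived gene, had 6 molecules in female and 11 in male cells.

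Among columns known only by an Ensembl identifier, 936 had a mean level of at least 10 CPM. Of these, 17 were more than 10-fold higher in female cells, 1.82%. Over all 8723 tested columns 21 were, 0.241% of them: those 17, the 3 rule genes, which the rule set to 0 in male cells, and ATP5A1W. ENSGALG00010012009 had 52.4 CPM in female and 0.236 CPM in male cells. ENSGALG00010013512 had 109 and 1.41 CPM. No identifier-only column was matched to a chromosome. In the other direction ENSGALG00010003723 had 4.85 CPM in female and 20.3 CPM in male cells, and ENSGALG00010013109 had 5.32 and 19.5 CPM. Of the 7224 tested columns placed on an autosome, 0 were more than 10-fold higher in female cells.

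Most Z-linked genes were higher in male cells. RefSeq placed 590 columns on chromosome Z, and 371 of them reached a mean of 10 CPM and were compared, and 334 of these had a ratio of male to female CPM above 1. Their median ratio of male to female CPM was 1.41 (interval over genes 1.36 to 1.45), and the quartiles were 1.20 and 1.55. The 7224 autosomal genes had a median ratio of 1.0 (0.997 to 1.0). Of the 371 Z genes, 129 were more than 1.5-fold higher in male cells, 34.8% of them, where 3.92% of all 8723 genes were. Past 2-fold were 3 Z genes, 0.809%, close to the 0.585% of all genes. The counting interval of the ratio lay above 1 for 308 Z genes, below 1 for 17 and across 1 for 46, and it lay wholly below 2 for 352. These interval counts were made for Z genes only, so no share of all genes stands beside them. Abundant autosomal genes also had intervals off 1, such as PTMA at 1.12 to 1.14 and EEF1A1 at 0.927 to 0.942.

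The same comparison within splanchnic cells, which are part of all cells, gave a Z median of 1.38 (1.33 to 1.42) over 355 genes. The autosomal median there was 0.991 (0.988 to 0.995). More than 1.5-fold higher in male splanchnic cells were 126 Z genes, 35.5%, against 3.49% of all 8508 genes compared. The plot of chromosome medians shows Z apart from every autosome with at least 20 compared genes. The autosome farthest from 1 over all cells was chromosome 25, at 0.937 (0.922 to 0.972).

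**Figure D2:**
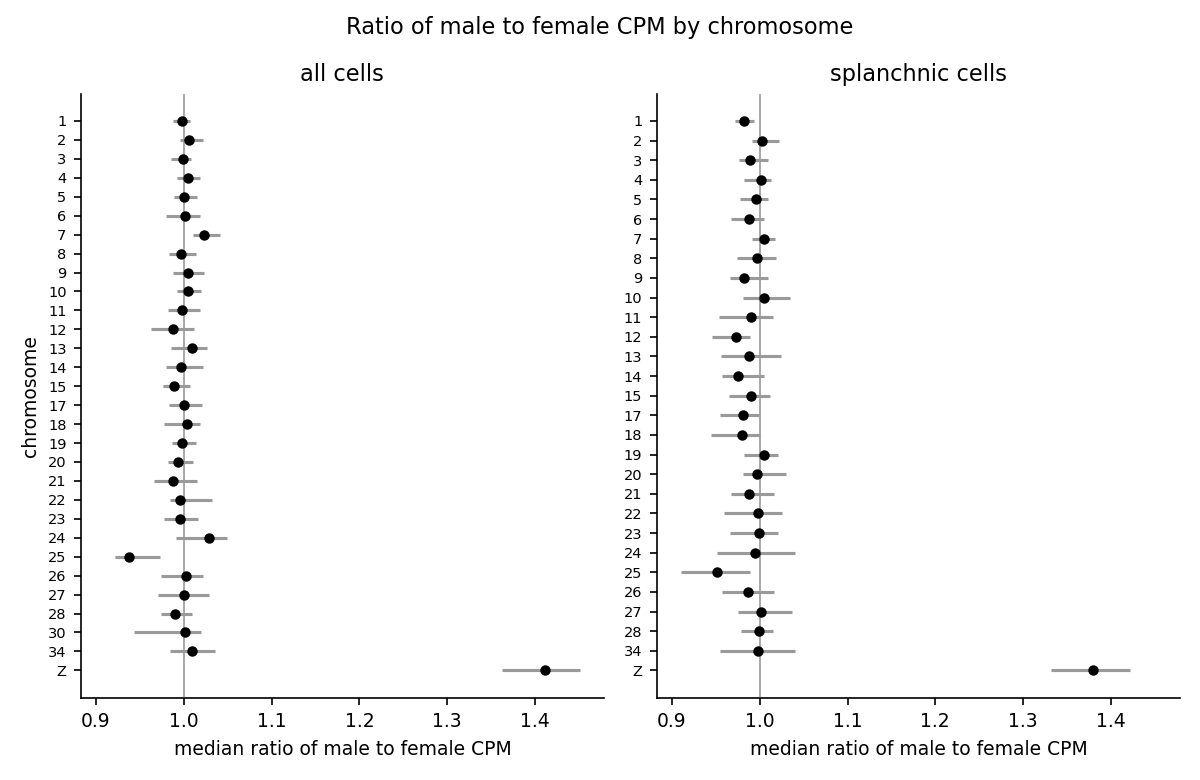
Median ratio of male to female CPM (horizontal axis) over the compared genes of each chromosome with at least 20 of them (vertical axis), with points for medians and bars for 95% order-statistic intervals over genes, in all cells (left) and splanchnic cells (right). Chromosome Z stands at 1.41 and 1.38, and the autosomes lie near 1.

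The Z difference was also present cell by cell. The share of Z-linked molecules among Z-linked plus autosomal molecules had a median of 3.35% in female cells, with the 5th and 95th percentiles at 3.04% and 4.41%. In male cells the median was 4.99%, with percentiles of 4.56% and 5.51%. The groups overlapped little: 99.7% of female cells lay below the male median and 99.2% of male cells above the female median. Splanchnic medians were 3.33% and 5.00%. In male cells the median was near 5% at every depth, at 5.03% below 20000 molecules, 4.98% from 20000 to 50000 and 5.02% from 50000 upward. In female cells it was 3.30%, 3.31% and then 3.74% in the deepest cells, whose 75th percentile was 4.22%.

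Some female cells had a Z share in the male range. Above the male 5th percentile of 4.56% lay 23 of the 667 female cells. Their median depth was 73196 molecules, against 29666.5 for the other 644. They held 0.871 rule molecules per 10000, against 2.44 in the others, and 0.609 ATP5A1W molecules per 10000, against 2.09. No doublet caller was run, and the part of paired cells in these values was not tested.

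**Figure D3:**
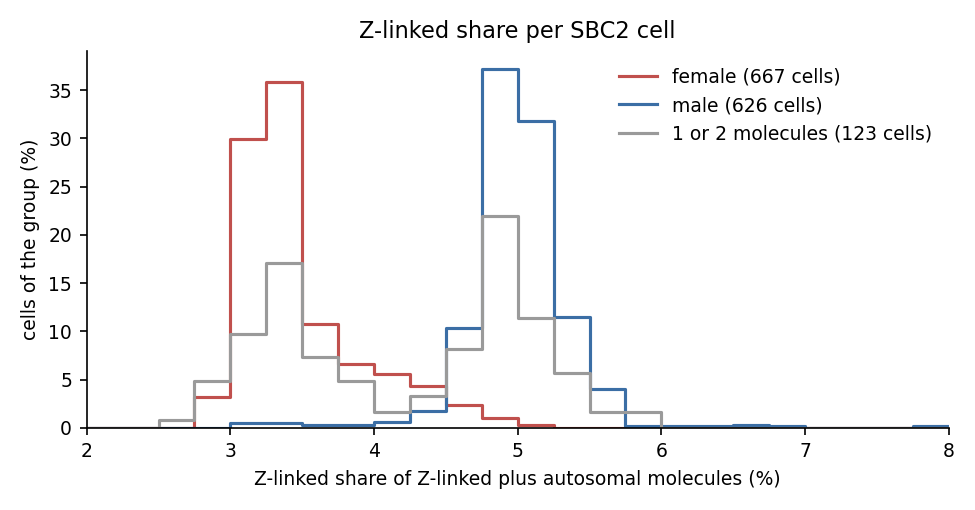
Per-cell share of Z-linked molecules among Z-linked plus autosomal molecules (horizontal axis, %) as the percentage of each group's cells (vertical axis) for female, male and left-out SBC2 cells in bins of 0.25 percentage points. Female cells peak near the median of 3.35%, male cells near 4.99%, and the left-out cells have a peak at each.

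The 123 cells with 1 or 2 rule molecules fell into both ranges. Of these, 35 had at least 3 ATP5A1W molecules and a median Z share of 3.34%. The 58 with no ATP5A1W molecule had a median of 4.94%, and the 30 with 1 or 2 had 3.45%. Their median depths were 20014, 37698 and 15171 molecules in that order. The 4 male cells with 3 or more ATP5A1W molecules had a median Z share of 3.70%. In SBC3, the cells without rule molecules had a median Z share of 5.00%. The 115 SBC3 cells with 3 or more, 2.63% of the barcode, had 3.46%.

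The SBC3 cells without rule molecules served as a second set of cells called male by the same rule, though they differ from SBC2 in barcode and so in tissue sample. Over the male SBC2 cells their Z median ratio was 0.991 (0.980 to 1.01), and the autosomal median was 0.993. More than 1.5-fold higher in those SBC3 cells were 3 of 377 Z genes, 0.796%, against 0.742% of all 8626 genes compared. Over the female SBC2 cells, which shares the SBC3 cells with the former comparison, the Z median ratio was 1.38 (1.33 to 1.42). There 125 of 367 Z genes were more than 1.5-fold higher in the SBC3 cells, 34.1%, against 4.09% of all genes. Within SBC3 itself, cells without over cells with 3 or more rule molecules had a Z median of 1.28 (1.251 to 1.305) and an autosomal median of 1.02.

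Of the Z genes with the highest mean CPM, the first 5 were about 1.5-fold higher in male cells and the next was nearly level. RPS23, a small-subunit ribosomal protein gene, had 1944 CPM in female and 2955 CPM in male cells, a ratio of 1.52 (1.5 to 1.54). RPS6, the ribosomal protein phosphorylated by S6 kinase, had 1609 and 2401 CPM. RPL17, of the large subunit, had 1218 and 1813 CPM. COX7C, a subunit of cytochrome c oxidase, had 634 and 985 CPM, and TXN, the redox protein thioredoxin, had 624 and 1015 CPM. The ratios of these 5 ran from 1.49 to 1.63. The next by mean CPM, RPL37, another ribosomal protein gene of the large subunit, had 777 and 814 CPM, a ratio of 1.05 (1.03 to 1.07). Split by level, the median ratio was 1.36 in the 124 lowest Z genes, 1.38 in the next 123 and 1.48 in the 124 highest.

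The Z members of the Z-W gene pairs were higher in male cells as well. Of 18 measured members, 16 were compared, with a median ratio of 1.5 and a range of 1.09 to 1.66. The other 355 Z genes had a median of 1.39 and a range of 0.201 to 2.17. Pair members were matched by symbol, so the other genes may include members under another name. ATP5F1AZ, by its name the Z form of the ATP synthase alpha subunit gene, is among them. It had 315 and 493 CPM, a ratio of 1.56. CZH18ORF25, also among them, had a ratio of 1.38. CHD1, a chromatin remodeller whose Z and W copies are used to sex birds, lies at 51951706 to 52001112 on Z and had 141 and 235 CPM, a ratio of 1.66 (1.59 to 1.74). SMAD2, the signal transducer of activin and nodal, had 46.7 and 77.6 CPM. TXNL1, a thioredoxin-like protein gene, had 94.98 and 157 CPM. Of the Z relatives of the rule genes, UBAP2 had 138 and 224 CPM, and SPIN1 95.7 and 152 CPM. HINT1 had 2.50 and 3.11 CPM, below the level compared. A column named HINT2, which RefSeq also places on Z, had 335 and 551 CPM, a ratio of 1.65 (1.60 to 1.69). Which of these columns holds the Z relative of HINTW was not tested. BTF3, a factor of nascent protein folding, had 283 and 423 CPM, and VCP, the segregase of ubiquitinated proteins, 205 and 305 CPM.

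HNRNPK, an RNA-binding protein gene, had 397 and 567 CPM, and SUB1, a transcription coactivator, 378 and 514 CPM, with ratios of 1.43 and 1.36. SMAD7 stood apart over all cells, with 51.2 and 55.5 CPM and a ratio of 1.09 (1.0 to 1.18). In splanchnic cells it had 57.4 and 87.5 CPM, a ratio of 1.53 (1.36 to 1.71). Splanchnic ratios of the 16 pair members ran from 1.39 to 1.77.

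**Figure D4:**
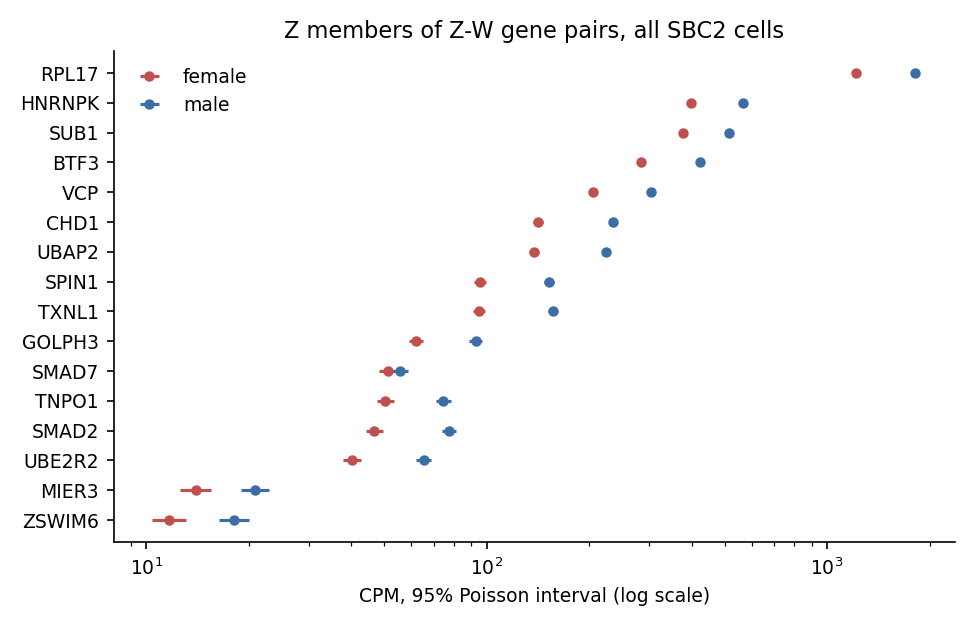
CPM (horizontal axis, log scale) of the 16 compared Z members of Z-W gene pairs in female and male SBC2 cells, with 95% Poisson intervals of the summed molecules and genes ordered by female level. Male cells are higher for each gene, most narrowly for SMAD7 at 51.2 and 55.5 CPM.

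The 10 largest male-to-female ratios on Z among genes with the same direction in splanchnic cells belonged to genes of diverse roles, and several were smaller within splanchnic cells. That condition passed over GNG10, a G protein gamma subunit gene, with 28.7 and 53.5 CPM over all cells, a ratio of 1.86, and 23.8 and 21.3 CPM in splanchnic cells, a ratio of 0.894. ELAVL2, a neuronal RNA-binding protein gene at 68119639 to 68204744 on Z, had 9.85 CPM in female and 21.4 CPM in male cells, a ratio of 2.17 (1.86 to 2.54). In splanchnic cells its ratio was 1.09 (0.688 to 1.69). PCSK5, a proprotein convertase, had 55.2 and 114 CPM over all cells but 43.4 and 44.3 CPM in splanchnic cells. YTHDC2, a reader of methylated RNA, had a ratio of 2.04 over all cells and 2.18 in splanchnic cells.

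WDR36, a nucleolar protein of ribosome assembly at 47399731 to 47429678 on Z, had 118 and 232 CPM, with ratios of 1.97 and 1.90. KIF27, a kinesin, had ratios of 1.92 and 1.90. The guidance genes SEMA6A, a semaphorin, and EFNA5, an ephrin, had ratios of 1.89 and 1.87 over all cells and 1.68 and 1.86 in splanchnic cells. ANXA1, an annexin, had 60.3 and 115 CPM, but its ratio was 1.12 among cells of at most 50000 molecules. ZNF608, a zinc finger gene, had ratios of 1.89 and 1.78, and SUSD1, a sushi-domain protein gene, 1.86 and 1.12.

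A minority of Z genes, 37 of the 371, was higher in female cells. Those named first are the 10 lowest ratios among genes with the same direction in splanchnic cells. AQP3, the aquaglyceroporin at 7642457 to 7656705 on Z, was lowest in the ratio, with 21.6 CPM in female and 4.33 CPM in male cells, 0.201 (0.159 to 0.251). It was the only Z gene more than 2-fold higher in female cells, where 1.46% of all genes were. In splanchnic cells it had 36.0 and 15.4 CPM. Splanchnic cells without rule molecules had 61.1 CPM in SBC3 but 6.72 CPM in SBC7, a further barcode of the same capture. SLC1A3, a glutamate transporter, had 23.4 and 12.4 CPM, and NFIB, a nuclear factor I transcription factor, 50.2 and 29.1 CPM. DAB2, an endocytic adaptor, had 16.2 and 9.66 CPM. OXCT1, an enzyme of ketone body use, had 68.1 and 46.1 CPM.

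The other 5 of these 10 lay closer to 1. HOMER1, a synaptic scaffold protein gene, had a ratio of 0.694, which was 1.24 with cells thinned to 4000 molecules. EGFLAM, a matrix protein gene, had 0.787, and F2RL1, a protease-activated receptor gene, 0.820. NLN, a peptidase gene, had 0.831 and LURAP1L 0.837. In splanchnic cells EGFLAM had a ratio of 0.924 (0.705 to 1.20) and F2RL1 0.844 (0.674 to 1.05). NLN had 0.997 (0.734 to 1.34) there and LURAP1L 0.930 (0.690 to 1.24). Each of these splanchnic intervals spans 1, so the shared direction says little for these genes. The condition passed over 3 genes with low ratios over all cells. PRDM6, of smooth muscle, had a ratio of 0.548 over all cells and 1.17 in splanchnic cells. C7, a complement component gene, had 0.636 and 1.42, and PLK2, a polo-like kinase gene, 0.794 and 1.15. By position, the 61 compared genes starting between 10 and 20 Mb of Z included 15 higher in female cells, the most of the 9 stretches of 10 Mb. Medians by stretch ran from 1.26 at 70 to 80 Mb to 1.51 at 60 to 70 Mb.

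Of 33 measured Z-linked developmental regulators, 25 were compared. Of these 8 were more than 1.5-fold higher in male cells, 32.0%, near the 34.8% of all compared Z genes. None was more than 1.5-fold higher in female cells, and the median ratio was 1.248. NR2F1, a nuclear receptor of neural and mesenchymal patterning, had 34.3 and 56.0 CPM. VCAN, a matrix proteoglycan, had 134 and 208 CPM over all cells and 120 and 122 CPM in splanchnic cells. ISL1, a LIM homeodomain factor of hindlimb and splanchnic mesoderm, had 229 and 238 CPM over all cells and 265 and 411 CPM in splanchnic cells, a ratio of 1.55 (1.47 to 1.63). LMNB1, the nuclear lamina protein gene, had 141 and 188 CPM. FGF10, the limb and lung growth factor, had 32.9 and 29.0 CPM, and PTCH1, the hedgehog receptor, 67.6 and 70.6 CPM.

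Of the sex determination and gonad list, 8 of 21 genes were high enough to compare, at a stage before the gonad differentiates. DMRT1, the Z-linked testis-determining transcription factor at 26451248 to 26506925, had 15.4 CPM in female and 24.4 CPM in male cells, a ratio of 1.59 (1.39 to 1.82). HSD17B4, a Z-linked peroxisomal and steroid enzyme, had 21.2 and 33.4 CPM. These were the 2 of the 8 more than 1.5-fold higher in male cells, where 3.92% of all genes were. Both are on Z, where 34.8% of the compared genes were. In splanchnic cells DMRT1 had a ratio of 1.41 (1.06 to 1.87), and 1 of the 8 was more than 1.5-fold higher in male cells. Over all cells 3 of the 8 were more than 1.5-fold higher in female cells, 37.5% against 3.4% of all genes. Among them were the autosomal genes WT1 and RSPO1. WT1, a transcription factor of the coelomic lining, had 53.7 and 25.6 CPM. RSPO1, an activator of WNT signalling, had 23.8 and 10.6 CPM. SOX9 had 109 and 106 CPM over all cells, but 44.8 and 27.1 CPM in splanchnic cells, a ratio of 0.605 (0.500 to 0.727). In splanchnic cells 4 of the 8 were more than 1.5-fold higher in female cells, where 4.23% of all genes were. Over all cells WNT4 had 33.9 and 38.8 CPM, and ESR1, the estrogen receptor alpha gene, 11.8 and 11.1 CPM. AMH, the anti-Mullerian hormone gene, was at 0.596 and 0.612 CPM, and CYP19A1, the aromatase gene, had 0.278 and 0.0471 CPM, both below the level compared.

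The sexes differed in the kinds of cell sampled. Of female cells 57.9% (54.0 to 61.7%) passed the splanchnic gate, and of male cells 24.4% (21.1 to 28.0%). With each cell thinned to 4000 molecules, 58.9% of female and 28.1% of male cells had a molecule of FOXF1, GATA4 or GATA5. Between 1 and 2 gate molecules per 10000 lay 53 female and 62 male cells, just outside the gate, and between 2 and 3 lay 44 female and 25 male cells. The SBC3 cells without rule molecules had a share of 15.1%, and those of barcode SBC7 37.1%.

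Other gates of 3 genes were set in the same way, and a cell could pass several. The limb gate, PITX1, TBX4 and PRRX1, held 74.8% of female and 54.2% of male cells. Its genes did not all go the same way over all cells. PITX1 had 605 CPM in female and 354 CPM in male cells, and PRRX1 398 and 491 CPM. Within splanchnic cells PITX1 had 952 and 908 CPM. The somite gate, MEOX1, TCF15 and PAX1, held 6.90% and 17.9%. The presomitic gate, TBX6, MSGN1 and DLL1, held 9.45% and 18.2%, and the neural gate, SOX2, SOX1 and PAX6, 6.30% and 13.7%. The ectoderm gate, TP63, GRHL3 and KRT18, held 58.5% and 32.9%. Every splanchnic cell of either sex also passed another gate, so these are not separate cell types. The Z median ratio was 1.39 in limb, 1.4 in ectoderm, 1.27 in neural, 1.27 in presomitic and 1.26 in somite cells. In the last 3 gates the median depth of female cells was 51275, 49512 and 48437 molecules, against 29295, 31318.5 and 28915 in male cells.

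Over all genes 3.4% were more than 1.5-fold higher in female and 3.92% in male cells, and several marker lists held larger shares. The splanchnic and lateral plate list, which holds the 3 gate genes, summed to 1616 CPM in female and 936 CPM in male cells, and 6 of its 7 compared members were more than 1.5-fold higher in female cells. The limb list was mixed, at 1329 and 1139 CPM. Of its 7 compared members, 3 were more than 1.5-fold higher in female and 1 in male cells. The somite list had 241 and 543 CPM, with 3 of 3 higher in male cells. Presomitic mesoderm had 129 and 219 CPM with 4 of 4, and neural tube 79.8 and 144 CPM with 4 of 4. The surface ectoderm list had 655 and 580 CPM and did not follow its gate as a whole. KRT18, a gate gene, had 333 and 205 CPM, and the other 5 members together had 321 CPM in female and 375 CPM in male cells. Within splanchnic cells the splanchnic list had 2393 CPM in both sexes, and its 7 members that are not gate genes had 1638 and 1644 CPM. The endothelium list there had 252 CPM in female and 148 CPM in male cells. The macrophage list had 10.2 and 14.1 CPM over all cells, with none of its 4 members high enough to compare.

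**Figure D5:**
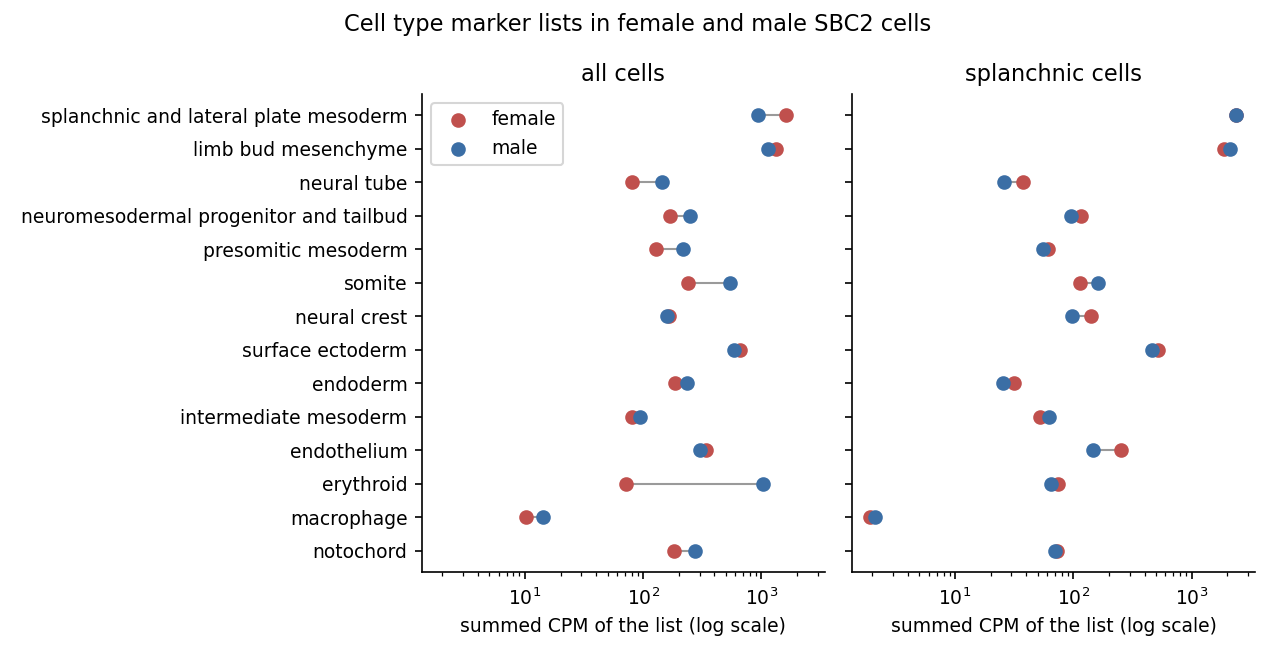
Summed CPM of each cell type marker list (horizontal axis, log scale; vertical axis, list) in female and male SBC2 cells, over all cells (left) and within splanchnic cells (right), drawn without intervals. The splanchnic list stands at 1616 CPM in female and 936 CPM in male cells over all cells and at 2393 CPM in both within splanchnic cells.

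The haemoglobin genes were far apart over all cells and much closer within splanchnic cells. The erythroid list had 72.1 CPM in female and 1035 CPM in male cells, and 4 of its 4 compared genes were more than 10-fold higher in male cells, the only genes that were, 0.0459% of all. Haemoglobin genes held over 1% of molecules in 4 male cells and in 0 female cells, and those 4 cells carried 93.5% of the male haemoglobin molecules. Without them the male level was 67.2 CPM. In splanchnic cells the list had 73.7 and 64.9 CPM, a ratio of 0.880 (0.776 to 0.996). There HBBA, a beta globin gene, had 26.5 and 20.2 CPM, a ratio of 0.761 (0.607 to 0.948). HBZ, another haemoglobin gene, had a ratio of 0.953 (0.774 to 1.17) there. The ratio of HBBA over all cells, 15.7, was 0.874 without the 4 cells. The level of free RNA in barcodes under 500 genes was 2192 CPM for HBBA.

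Autosomal genes with the lowest male-to-female ratios included genes of smooth muscle and of splanchnic and body wall mesenchyme. More than 1.5-fold higher in female cells were 223 of the 7224 autosomal genes, 3.09%, and 3.4% of all 8723 genes were. ACTA2, smooth muscle actin, had 531 CPM in female and 105 CPM in male cells. Within splanchnic cells it had 917 and 358 CPM, and splanchnic SBC3 cells without rule molecules had 426 CPM. COL3A1, a fibrillar collagen, had 123 and 26.6 CPM, and MAB21L2, needed for ventral body wall growth in the mouse, 110 and 25.3 CPM.

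The transcription factor TBX5, known for the forelimb and heart, had 51.3 and 10.1 CPM over all cells. Within splanchnic cells it had 86.0 and 36.7 CPM, with 68.8 CPM in those of SBC3, between the sexes of SBC2. Those of SBC7 without rule molecules had 15.3 CPM, below both sexes. The water channel gene AQP1 had 43.6 and 4.90 CPM over all cells and 63.8 and 3.07 CPM within splanchnic cells, where SBC3 had 12.9 CPM. The SBC2 cells left out of both sexes had 93.5 CPM of AQP1, above both sexes over all cells. TH, the tyrosine hydroxylase of catecholamine synthesis, had 20.4 and 2.69 CPM. V-BG, a gene of the B-G family of the chicken major histocompatibility complex, had 23.2 and 4.05 CPM, and 22.3 and 5.95 CPM in splanchnic cells, where SBC3 had 5.57 CPM. VWDE, a von Willebrand factor domain gene, had 31.8 and 6.22 CPM, and ABCC9, a subunit of potassium channels in vascular muscle, 23.9 and 5.61 CPM.

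Of the autosomal genes with the same direction in splanchnic cells, those with the highest male-to-female ratios included genes of the somite and dorsal neural tube. More than 1.5-fold higher in male cells were 159 autosomal genes, 2.20%. NTN1, the guidance cue netrin, had 29.1 CPM in female and 94.9 CPM in male cells, a ratio of 3.26 (2.99 to 3.55), and 9.35 and 25.7 CPM in splanchnic cells. PAX3 and PAX7, paired-box factors of dorsal neural tube and dermomyotome, had 13.4 and 38.3 CPM and 17.2 and 43.7 CPM. EBF2 and EBF3, helix-loop-helix factors, had ratios of 2.70 and 2.48, and SMOC1, a BMP antagonist, 2.70. For SMOC1 the splanchnic ratio was 1.09 (0.838 to 1.4) and for EBF2 1.44 (0.948 to 2.15). Both intervals span 1, so the shared direction says little for these genes. In splanchnic cells PAX3, EBF2, RASD1, NPY and CDH20 were below the mean of 10 CPM used for comparison. RASD1, a small GTPase, had 6.32 and 23.1 CPM, NPY, a neuropeptide, 12.8 and 33.5 CPM, CDH20, a cadherin, 13.5 and 33.2 CPM, and TIRAP, an adaptor of Toll-like receptors, 6.91 and 17.2 CPM.

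The condition of the same direction passed over 8 autosomal genes with high ratios over all cells. They were the 4 haemoglobin genes, COL14A1, OVAL, CHRD and LMX1B. COL14A1, a collagen gene, had a ratio of 3.06 over all cells and 0.581 in splanchnic cells. CHRD, the BMP antagonist chordin, had 2.79 and 0.437, and LMX1B, a factor of dorsal limb and neural tube, 2.53 and 0.749. OVAL, the ovalbumin gene, had 7.67 and 22.9 CPM over all cells.

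The ratios of single genes moved with the choice of cells. Counted here are 52 genes, the 40 highest and lowest on Z and autosomes with the same direction in splanchnic cells and the 12 passed over. With at most 10% mitochondrial molecules, which left 53 female and 78 male cells, 30 of the 52 moved by more than 1.5 times. Among them the ratio was 1.53 for NTN1, 1.15 for PAX3, 1.07 for CDH20 and 0.539 for AQP1. It crossed 1 for NFIB, SLC1A3, SUSD1 and C7, at 1.26, 1.89, 0.625 and 1.32, for LURAP1L, at 1.01, and for 3 haemoglobin genes. With SBC2 at least 10 times the next barcode, 11 genes moved by more than 1.5 times, including NTN1 to 8.46, NPY to 10.4 and ACTA2 to 0.302. There PLK2 crossed 1, at 1.32, and LURAP1L, at 1.01. With cells weighted equally 3 genes moved by more than 1.5 times, and with cells thinned to 4000 molecules 6 did. AQP1 moved by more than 1.5 times in each of these settings.

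Female splanchnic cells had a median of 7.55 gate molecules per 10000 and male splanchnic cells 6.38. Within splanchnic cells 360 of 8508 genes were more than 1.5-fold higher in female cells, 4.23%. BMP4, a growth factor of ventral mesoderm, had 293 CPM in female and 487 CPM in male splanchnic cells, with 295 CPM in those of SBC3. PRRX1, of limb and lateral plate mesenchyme, had 490 and 840 CPM, with 832 CPM in SBC3. GATA4 had 281 and 201 CPM and GATA5 450 and 527 CPM, both genes of the gate. HAND2, a lateral plate factor, had 1077 and 855 CPM. EGFL7 and TAL1, of blood vessels and their progenitors, had 64.2 and 18.2 CPM and 47.4 and 17.7 CPM. They belong to the endothelium list, of which 3 of 5 compared members were more than 1.5-fold higher in female splanchnic cells. Over all cells 2 of its 6 members were, and LMO2 went the other way there, with 95.8 and 128 CPM.

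Among glycolysis genes LDHA, lactate dehydrogenase A, was farthest from a ratio of 1. It had 66.6 and 115 CPM over all cells, and 38.5 and 133 CPM in splanchnic cells, a ratio of 3.46 (3.09 to 3.88). Splanchnic SBC3 cells without rule molecules had 39.3 CPM, near the female SBC2 cells, and those of SBC7 had 73.8 CPM, between the sexes. It was the only 1 of the 12 compared glycolysis genes past 1.5-fold in either set of cells, 8.33% of them. Of all genes 3.92% were more than 1.5-fold higher in male cells over all cells, and 3.49% in splanchnic cells. The glycolysis list as a whole had a ratio of 1.08 over all cells and 1.17 in splanchnic cells. PHGDH, of serine synthesis, had 36.5 and 66.4 CPM in splanchnic cells.

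The homocysteine and methionine list differed little between the sexes. It summed to 969 CPM in female and 1006 CPM in male cells over all its members. AHCY, which splits S-adenosylhomocysteine, had 226 and 219 CPM, CBS, which condenses homocysteine with serine, 10.1 and 12.9 CPM, and CTH, the next enzyme, 214 and 231 CPM.

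Proliferation lists were close between the sexes. S phase genes had a summed ratio of male to female of 1.12 over all cells and 1.20 in splanchnic cells, and none of 19 was past 1.5-fold over all cells. In splanchnic cells 1 of the 19 was, where 3.49% of all genes were more than 1.5-fold higher in male cells. It was RRM2, of deoxynucleotide synthesis, with 269 and 407 CPM. G2 and M phase genes had ratios of 0.981 and 0.930, with 0 of 16 past 1.5-fold.

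The posterior HOX genes, paralogue groups 8 to 13, had a summed ratio of 1.07. Of 17 compared, 3 were more than 1.5-fold higher in male cells, 17.6% against 3.92% of all genes, and 1 in female cells, 5.88% against 3.4%. In splanchnic cells 1 of the 17 was more than 1.5-fold higher in male cells and 1 in female cells. There 3.49% and 4.23% of all genes were. HOXD8 had 95.6 and 156 CPM and HOXD10 67.0 and 105 CPM over all cells. HOXA13, of the most posterior and distal tissue, had 509 CPM in female and 288 CPM in male cells, and 608 and 489 CPM in splanchnic cells. Immediate early and heat shock genes had a summed ratio of 0.992, and 3 of 14 were more than 1.5-fold higher in female cells, 21.4% against 3.4% of all genes. These were EGR1, with 84.1 and 42.6 CPM, FOSL2, with 29.6 and 11.3 CPM, and ATF3, with 75.8 and 42.0 CPM, transcription factors known to respond to stress.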

How the data were processed

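The deposited counts are numbers of distinct molecules per gene and cell, made by the authors with the BD Rhapsody WTA Analysis Pipeline 1.11 on GRCg7b with Ensembl release 107, including intronic reads and an exact cell count of 60000, per the file headers. The counts are not normalized. R 3.6.2 and Seurat are named in the submitters' processing notes, with no role given. Of 28190 gene columns 12399 matched 1 chromosome by symbol in RefSeq on GRCg7b, and 15073 carry an Ensembl identifier only.

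Molecules were summed over the 667 female (25172453 molecules) and 626 male cells (21226536). Each sum was divided by the total gene molecules of its group and multiplied by 1000000 to give CPM. Python 3.11.15, numpy 2.4.6, pandas 2.3.3 and scipy 1.17.1 were used. Splanchnic sums were 14010877 and 5209798 molecules. Genes with a mean of at least 10 CPM over the sexes were compared, and 1.5-, 2- and 10-fold were used as sizes. Cells are not replicates, so no test was run. Sums have exact Poisson intervals, ratios exact conditional binomial intervals, shares Clopper-Pearson intervals and medians order-statistic intervals, at 95%. The calculation was tested on simulated data. No doublet caller was run, and cells above 50000 molecules were removed in an alternative instead. Named genes were those of the rule, the W columns, on Z and on autosomes the 10 highest and 10 lowest ratios among genes with the same direction in splanchnic cells and the 5 most abundant, the leading members of each list, the Z-W pairs and the sex determination list. Genes that this condition passed over, and members of the gene lists named beyond this, were chosen after their values were seen. The cells, the rule and the lists were chosen with earlier results of these data known. Some genes of the lists are not reported here.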

Additional observations from a re-analysis of the deposited data

Results flagged for a closer look

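Signal of the W-linked rule genes was also present in cells that the comparison of female and male SBC2 cells did not use. Of the 4996 filtered cells assigned to no barcode, 469 (9.39%) had 3 or more molecules of HINTW, SPIN1L and UBAP2L2, and their median Z share was 3.31%. Of the 1551 filtered cells of SBC7, 15 (0.967%) had 3 or more, and their median depth was 75113 molecules, against 44108 in the SBC7 cells with none.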

How the results depend on the processing

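No paired analysis was possible because the data are 1 pooled sample without replicates. The Z median over all cells ranged from 1.30 to 1.47 over 15 alternatives, and 10 of these stayed within its interval. It was 1.47 with at most 50000 molecules per cell, 1.30 with at most 10% mitochondrial molecules, 1.45 with cells weighted equally, 1.47 at a mean of 50 CPM and 1.35 with no filter on low genes. In splanchnic cells the same settings gave 1.45, 1.24, 1.47 at 50 CPM and 1.33 with no filter. Autosomal medians over all cells were 1.0 (at most 50000 molecules, and equal weights), 0.994 (10% mitochondrial), 0.991 (10 times the next barcode) and 1.01 (autosomal scaling, thinning, and 50 CPM). In splanchnic cells they were 1.0 (10% mitochondrial, and 50 CPM), 0.978 (10 times), 0.998 (autosomal scaling), 0.997 (equal weights), 0.996 (thinning) and 0.985 (no filter). The SBC3 cells over male SBC2 cells gave a Z median of 1.01 at 50 CPM.

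Counts past 1.5-fold rested on the level compared. Higher in female cells were 494 genes with thinning, 85 at 50 CPM and 3034 with no filter, and higher in male cells 589, 133 and 3310. In splanchnic cells the female counts were 900, 78 and 2529, with 578 at 5 CPM, and the male counts 817, 122 and 3122. At most 10% mitochondrial molecules, which left 21 female and 18 male splanchnic cells, gave 857 and 916. The female share was 46.2% with 5 or more rule molecules, 40.5% with at most 10% mitochondrial molecules and 62.7% with SBC2 10 times the next barcode. With at most 10% mitochondrial molecules NFIB (1.26), SLC1A3 (1.89), SUSD1 (0.625), C7 (1.32), HBAD (0.935), HBBA (0.820) and HBZ (0.924) crossed 1. Without cells over 1% haemoglobin HBA1 (0.917), HBAD (0.926), HBBA (0.874) and HBZ (0.996) did. Of 572 values of 52 single genes, 557 kept their direction. The causes were not tested. Removing cells over 1% haemoglobin and removing male cells with 3 or more ATP5A1W molecules were chosen after seeing the data, and both kept the Z median within its interval. Thinning to 4000 molecules leaves few molecules for genes of low level, which limits those comparisons.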

Other observations

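Mitochondrially encoded genes were close between the sexes but not uniform. The 13 genes summed to a ratio of male to female of 0.978 over all cells and 0.970 in splanchnic cells. COX2, a subunit of cytochrome c oxidase, had 16093 CPM in female and 14757 CPM in male cells, and ND6, a subunit of complex I, 2721 and 2434 CPM. ND2, of the same complex, had 7003 and 7779 CPM. In SBC3 cells without rule molecules these 3 genes had 14733, 2450 and 8478 CPM. The stress lists were close as well. Amino-acid and ER stress genes had a summed ratio of 1.06. Of 11 compared, 1 was more than 1.5-fold higher in male cells, 9.09% against 3.92% of all genes. It was PSAT1, the serine synthesis aminotransferase gene, with 86.4 and 133 CPM. PSAT1 is on Z, where 34.8% of the compared genes were. In splanchnic cells it had 74.4 and 88.1 CPM, and PHGDH was the 1 member past 1.5-fold.

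Some genes differed between the sexes of SBC2 in splanchnic cells with the SBC3 cells near 1 sex or the other. The SBC7 cells did not always go with those of SBC3. ISL1 had 265 CPM in female and 411 CPM in male SBC2 cells. It had 388 CPM in the SBC3 and 309 CPM in the SBC7 cells without rule molecules. WT1 had 83.1 and 40.1 CPM, with 71.4 CPM in SBC3 and 51.1 CPM in SBC7. RSPO1 had 34.6 and 17.3 CPM, with 36.1 CPM in SBC3 and 11.7 CPM in SBC7.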
